A study of Sordaria macrospora with 16 samples.

Results

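In mycelium of the filamentous ascomycete *Sordaria macrospora*, 282 genomic regions carried peaks of histone H3 but none of H3 trimethylated at lysine 27 (H3K27me3) in the wild type. They were found by merging overlapping peaks of 8 ChIP-seq peak lists into 7932 regions. A region was kept when at least 3 of the 4 H3 lists had a peak in it, neither wild-type H3K27me3 list did, and at most 1 of the 2 Δasf1 H3K27me3 lists did. The 282 regions were 3.56% of all merged regions and 6.43% of the 4383 regions with a peak in at least 3 H3 lists, which are called H3 regions here. Of the other H3 regions, 3801 (86.7%) had a wild-type H3K27me3 peak and 300 had none but had peaks in both Δasf1 H3K27me3 lists. The regions were chosen by the presence of measured peaks in these lists, so their number, their peaks and their fold enrichments are descriptions. The same holds for comparisons of these peaks between the strains, and a test is given only for the share of peak length in genes, which the choice did not use.

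The study compared Δasf1, a deletion mutant of the histone chaperone gene *asf1*, with the wild type, using antibodies against H3 and against H3K27me3 and 2 replicates for each strain and antibody. Both strains were grown as mycelium under constant light at 27 °C in a liquid complete medium, Δasf1 for 3 days and the wild type for 2 days because the mutant grows more slowly. Strain and growth time thus cannot be told apart. Chromatin of all groups was fixed with formaldehyde and digested with micrococcal nuclease (230 U/ml, 105 min). How many independent Δasf1 isolates were used is not given in the sources used here, and the labels do not say whether replicates came from separate cultures, so the spread and the p-value given cover only these libraries.

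Histone H3 is a core component of every nucleosome, and an H3 precipitation recovers DNA that was wrapped in nucleosomes. H3K27me3 is set by the Polycomb repressive complex 2 and is known in many fungi as a mark of silent chromatin, often near chromosome ends. ASF1 is a chaperone that hands H3 and H4 to the machinery that assembles nucleosomes during replication and transcription.

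Each list held 4401 to 6525 peaks, with a fold enrichment per peak, which is the ratio of the signal to the background of the peak caller. The 4 lists of replicate 1 went down to a −log10 q of 2.02 to 2.05 and the 4 lists of replicate 2 to 1.00 to 1.03. The lists give no read numbers, so sequencing depth is unknown. The *asf1* locus was not checked, because the gene table used gives locus tags without gene names.

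The label of the regions holds only at the cutoffs of the deposited lists. When a common −log10 q of 2.05 was asked of all 8 lists, 260 regions met the rule, but only 91 of the 282 regions (32.3%) were among them, and 189 of the 282 had peaks left in fewer than 3 H3 lists. With the upper 50% of the peaks of each list, 282 regions met the rule again. Only 38 of the original 282 (13.5%) were among them, and 205 of the new set (72.7%) lay where the full lists had a wild-type H3K27me3 peak. The absence of a peak therefore stands for a signal under a cutoff and not for a measured absence of the mark.

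The regions were short and their peaks were weak. Together they spanned 499.5 kb, 1.27% of the 39.4 Mb genome. Their length ran from 350 to 6555 bp, with quartiles of 1025, 1568.5 and 2312 bp, against a median of 3277 bp for H3 regions with wild-type H3K27me3. The share of H3 regions that met the rule was lower in each longer class. It was 21.9% (66 of 301) under 1 kb, 12.6% (120 of 949) from 1 to 2 kb, 6.77% (64 of 945) from 2 to 3 kb, 2.99% (21 of 703) from 3 to 4 kb and 0.741% (11 of 1485) at 4 kb and over. Length and the rule are linked by construction, since a longer merged region has more room for a peak of any list, so this gradient was not tested.

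**Figure D1:**
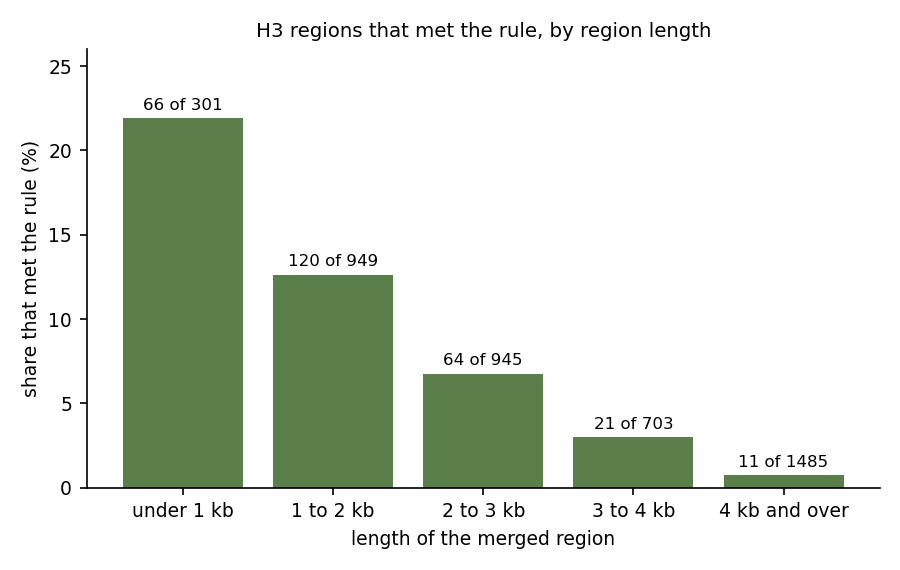
Share of H3 regions (peak in at least 3 of 4 H3 lists) that met the rule, in percent, by length class of the merged region in kb. Bars carry the number that met the rule and the number of H3 regions. The bars step down from 21.9% under 1 kb to 0.741% at 4 kb and over.

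The median fold enrichment of the H3 peaks in the 282 regions was 1.37 and 1.35 in Δasf1 replicates 1 and 2, against 1.39 and 1.27 in wild-type replicates 1 and 2. These medians lay at or just under those of the whole lists, which were 1.39 and 1.35 in Δasf1, against 1.41 and 1.28 in the wild type. By −log10 q the median peak in the regions stood at percentiles 32.1 and 47.3 of its list in Δasf1, against 31.4 and 36.3 in the wild type. The regions held none of the strongest peaks. The highest −log10 q in them was 12.6 and 5.57 in Δasf1, against 8.87 and 5.80 in the wild type, whereas the lists reached 269 and 51.8 in Δasf1, against 208 and 81.9 in the wild type. Regions just inside the H3 condition (212, with peaks in 3 H3 lists) had median fold enrichments of 1.37 and 1.35 in Δasf1, against 1.39 and 1.27 in the wild type. Regions just outside it (369, with peaks in 2 H3 lists) had 1.35 and 1.33 in Δasf1, against 1.37 and 1.26 in the wild type.

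All 4 H3 lists had a peak in 70 of the 282 regions (24.8%), and 212 (75.2%) lacked 1 list. The missing list was Δasf1 replicate 2 in 123 regions (43.6%), wild-type replicate 1 in 39, Δasf1 replicate 1 in 29 and wild-type replicate 2 in 21. Δasf1 replicate 2 was also the shortest H3 list, with 4401 peaks against 6358 to 6525 in the other H3 lists. The part of the list length in the missing peaks was not tested.

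Merging can join peaks that merely touch each other, so the bases shared by the lists were counted. In 263 of the 282 regions at least 3 H3 lists shared a base, and in 19 they shared none. The shared stretch had a median of 465.5 bp and was at least 150 bp long, about the DNA of 1 nucleosome core, in 234 regions. Of the 70 regions with all 4 lists, 62 had a base common to all 4. Most of the regions thus held a core on which the H3 lists met. The rule makes such a core likely, and the same count was not made for other H3 regions.

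The region with the highest fold enrichment in its weakest H3 list lay on chromosome 1 at 7775222 to 7776334, inside SMAC4_00398 (all positions are those of the lists, in the assembly that the lists name Sm_v04_wtN). Its H3 fold enrichments were 1.50 and 1.41 in Δasf1, against 1.63 and 1.40 in the wild type. Δasf1 H3K27me3 replicate 1 had a peak of 1.60-fold there and replicate 2 had none. The strains overlapped in this region, since wild-type replicate 2 was the lowest library and wild-type replicate 1 the highest. No function is given for SMAC4_00398 or for the other genes named by locus tag in the sources used here.

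Next in this order came a region of 602 bp on chromosome 1 at 2340267 to 2340868, inside SMAC4_06857, with 1.52 and 1.45 in Δasf1, against 1.52 and 1.39 in the wild type. A region of 791 bp on chromosome 6 at 3297660 to 3298450, inside SMAC4_03720, had 1.42 and 1.39 in Δasf1, against 1.48 and 1.45 in the wild type. Here both Δasf1 values lay under both wild-type values, while Δasf1 H3K27me3 replicate 2 had a peak of 1.44-fold. The region on chromosome 3 at 3661219 to 3663755 lay almost wholly in SMAC4_00918 (99.7% of its length) and held the strongest H3 peak among the 70 regions with all 4 lists, with 1.67 and 1.36 in Δasf1, against 1.44 and 1.37 in the wild type. The 1.67-fold peak covered only 11.6% of the region, and wild-type replicate 2 covered 89.6% of it. The region on chromosome 3 at 3039236 to 3041495, which reached SMAC4_04723 and SMAC4_04724, had 1.36 and 1.36 in Δasf1, against 1.42 and 1.37 in the wild type. Genes made up 34.3% of that region.

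In the longest regions 1 H3 list covered most of the length. On chromosome 2 at 1768762 to 1775316 (6555 bp), wild-type replicate 2 covered 99.2% of the region, Δasf1 replicate 1 8.51% and wild-type replicate 1 20.9%, and Δasf1 replicate 2 had no peak. The fold enrichment there was 1.31 in Δasf1 replicate 1 and 1.38 and 1.23 in wild-type replicates 1 and 2. The region reached 3 genes, SMAC4_07026, SMAC4_07027 and SMAC4_07028. On chromosome 2 at 4004366 to 4010551 (6186 bp), wild-type replicate 2 covered 100% and only 1.36% of the region lay in a gene, SMAC4_02578. The next in length were 5126 bp on chromosome 1 at 3929305 to 3934430 (SMAC4_02767), 4735 bp on chromosome 5 at 1542243 to 1546977 (SMAC4_04130, SMAC4_04131 and SMAC4_04132) and 4415 bp on chromosome 4 at 4215300 to 4219714 (SMAC4_02140 and SMAC4_02141). In these 3 regions wild-type replicate 2 again covered the largest share of any H3 list, 52.3% to 82.0%.

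Fold enrichment in the 70 regions with all 4 H3 lists was then compared between strains. The mean log2 fold enrichment was 0.47 and 0.44 in Δasf1 replicates 1 and 2, against 0.50 and 0.36 in wild-type replicates 1 and 2. Both Δasf1 libraries lay between the 2 wild-type libraries. The means were 0.45 ± 0.02 for Δasf1 and 0.43 ± 0.10 for wild type (n = 2 each, ± SD), a difference of 0.02 on the log2 scale. No p is given, since the 70 regions were kept for having these same peaks. Within replicate 1 the difference was −0.03 and within replicate 2 it was 0.08, so its sign depended on the replicate number. The difference was smaller than the spread between replicates.

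**Figure D2:**
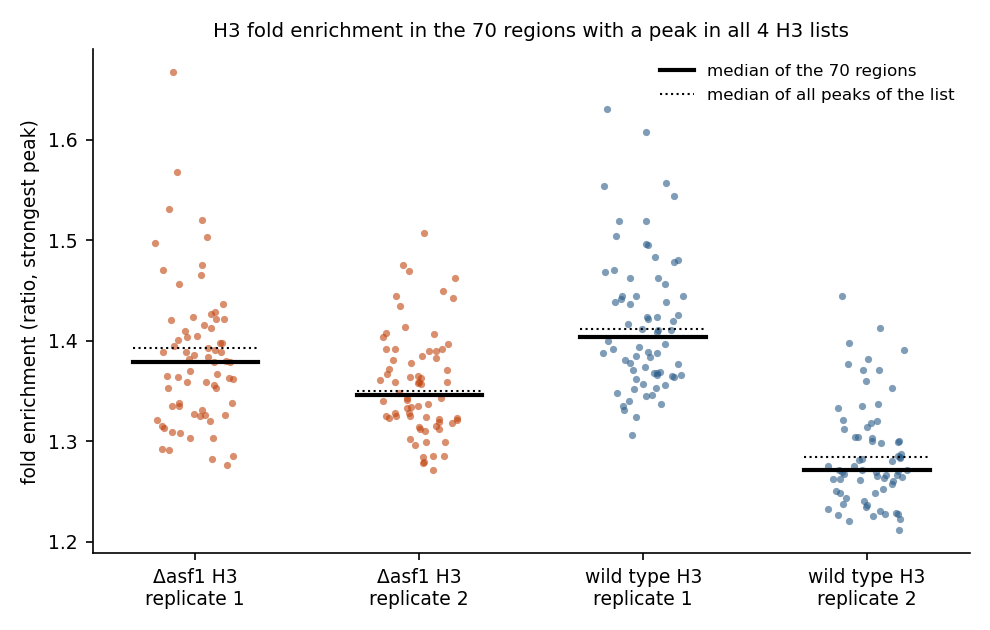
Fold enrichment (ratio) of the strongest H3 peak in each of the 70 regions with a peak in all 4 H3 lists, by library, 1 point a region. Solid lines are the medians of the 70 regions and dotted lines the medians of all peaks of the list. Each solid line sits at or just under its dotted line, and the wild-type libraries lie above (replicate 1) and below (replicate 2) both Δasf1 libraries.

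Fold enrichment was divided by the median of its list before single regions were compared. Both Δasf1 values then lay above both wild-type values in 12 of the 70 regions (17.1%) and below them in 7 (10.0%). Over all 2674 regions with a peak in all 4 H3 lists these shares were 15.1% and 16.3%. The share above was thus near that of all such regions, and no result about the 70 regions is read from either count. The log2 differences between the strain means ran from −0.12 to 0.08 with a median of −0.0072, beside a median of −0.0022 over the 2674 regions.

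Among the 12, the differences were largest on chromosome 1 at 1989971 to 1993123 (SMAC4_05389), on chromosome 4 at 1676503 to 1677383 (SMAC4_01902) and on chromosome 3 at 2463471 to 2466596 (SMAC4_00835 and SMAC4_00836). The first had deposited fold enrichments of 1.40 and 1.39 in Δasf1, against 1.38 and 1.23 in the wild type, a log2 difference of 0.08 after division by the list medians. For SMAC4_01902 the values were 1.47 and 1.44 in Δasf1, against 1.46 and 1.27 in the wild type, a difference of 0.07. The region of SMAC4_00835 had 1.38 and 1.38 in Δasf1, against 1.33 and 1.26 in the wild type, a difference of 0.06. In all 3, wild-type replicate 2 was the lowest library as deposited.

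The lowest difference among the 7 was −0.12 on chromosome 2 at 1004976 to 1006088 (SMAC4_07837), with deposited values of 1.31 and 1.29 in Δasf1, against 1.46 and 1.32 in the wild type. The next was −0.09 on chromosome 2 at 1134466 to 1136665 (SMAC4_04373), with 1.28 and 1.27 in Δasf1, against 1.43 and 1.25 in the wild type. Last came −0.08 in the region of SMAC4_03720 on chromosome 6 described above. The regions on chromosome 2 lie between 0.7 and 1.3 Mb, a window that stood apart between the strains as a whole. H3 peaks covered 42.8% and 34.7% of it in Δasf1, against 20.8% and 31.3% in the wild type, and H3K27me3 peaks 41.0% and 41.0% in Δasf1, against 13.9% and 14.9% in the wild type. Of the 282 regions, 6 lay in this window, and all 6 had log2 differences below 0 over the lists with a peak (−0.12 to −0.02). So had 63 of all 77 H3 regions of the window (81.8%), and of its 65 regions with all 4 H3 lists 2 had both Δasf1 values above both wild-type values and 26 (40.0%) below them. Without the window 12 of 66 regions (18.2%) were above and 5 (7.58%) below, beside 15.4% and 15.7% of all 2609 regions.

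The length of the 282 regions that H3 peaks covered was 237.1 and 160.0 kb in Δasf1 replicates 1 and 2, against 209.8 and 329.1 kb in wild-type replicates 1 and 2. As shares of the region length these were 47.5% and 32.0% in Δasf1, against 42.0% and 65.9% in the wild type. Over the whole genome the same lists covered 24.3% and 14.7% in Δasf1, against 20.8% and 31.2% in the wild type. The libraries stood in the same order there, so no trait of the 282 regions is read from the covered lengths. The means were 198.5 ± 54.5 kb for Δasf1 and 269.5 ± 84.4 kb for wild type (n = 2 each, ± SD), and the ratio of geometric means was 0.741 (log2 −0.43). Among replicate 1 libraries alone this ratio came to 1.13, among replicate 2 libraries to 0.486. The strains overlapped. A region without a peak in a list adds 0 kb to it, and 123 regions lacked Δasf1 replicate 2 against 21 to 39 for each other list, so the ratio is a description of the chosen peaks and has no p. The peaks in the regions were narrower than the other peaks of their lists in each H3 library, with median widths of 804 and 913 bp in Δasf1 and 727 and 1057 bp in the wild type, against 1133.5 and 1062 bp and 1020 and 1425 bp elsewhere in the same lists.

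The rule allowed a peak in 1 of the Δasf1 H3K27me3 lists, and 224 of the 282 regions (79.4%) had one. In 139 it came from replicate 1 alone and in 85 from replicate 2 alone, and 58 regions had no H3K27me3 peak in any list. Most of the regions without wild-type H3K27me3 peaks were therefore not without the mark in Δasf1 by these lists, yet in none of them did both Δasf1 replicates call it, by the rule. Over all 4383 H3 regions, Δasf1 H3K27me3 replicate 1 had a peak in 3877 and replicate 2 in 3721. The rule's limit of 1 list lowers such counts in the 282, so no trait of these regions is read from them. The 58 regions were 1.32% of the 4383 H3 regions, of which 1784 had peaks in all 4 H3K27me3 lists.

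Calls in a single H3K27me3 list were more numerous in Δasf1. Over the 4383 H3 regions, 139 and 85 had their only H3K27me3 peak in Δasf1 replicate 1 or 2, against 25 and 37 in wild-type replicate 1 or 2. As shares of the H3 regions in which that list had a peak at all, these were 3.59% and 2.28% in Δasf1, against 0.763% and 1.43% in the wild type. The Δasf1 H3K27me3 lists were also longer, with 6090 and 6167 peaks against 4856 and 4764 in the wild type. With the strains exchanged in the rule, 120 regions were found, 58 of which are the regions with no H3K27me3 peak. Peaks in both lists of 1 strain and neither of the other were found in 300 H3 regions for Δasf1 and in 34 for the wild type. Since the rule rests on these same lists, these counts carry no test.

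**Figure D3:**
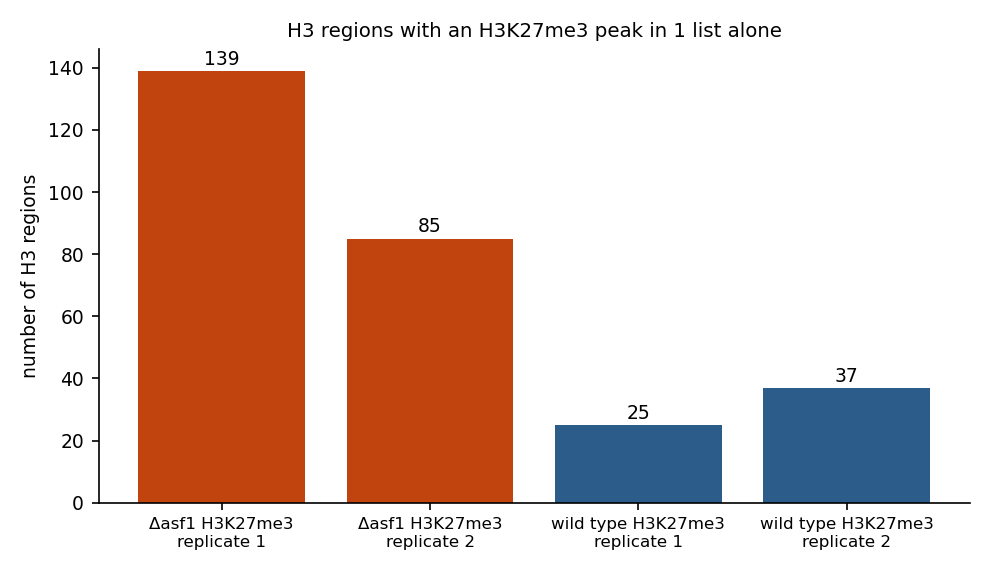
Number of H3 regions whose only H3K27me3 peak is in the named list. The Δasf1 bars reach 139 and 85 and the wild-type bars 25 and 37, and the 224 regions of the Δasf1 bars belong to the 282.

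The single H3K27me3 peaks had median fold enrichments at or just under those of their lists. The 139 peaks of Δasf1 replicate 1 had fold enrichments of 1.27 to 1.69 with a median of 1.40, against 1.43 for the whole list. The 85 of replicate 2 had 1.25 to 1.65 with a median of 1.32, as in the whole list. In replicate 1, 132 of the 139 regions also had an H3 peak in the Δasf1 H3 list of the same number, and the H3K27me3 fold enrichment was the higher in 82. In replicate 2 this was so in 23 of 56. The replicates thus differed in which antibody gave the higher value, and so did the whole lists. Their medians in Δasf1 replicate 1 were 1.43 for H3K27me3 and 1.39 for H3. In Δasf1 replicate 2 they were 1.32 for H3K27me3 and 1.35 for H3. These counts are therefore not read as a trait of the regions.

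The highest of these H3K27me3 peaks (1.69-fold, Δasf1 replicate 1) lay on chromosome 1 at 3689729 to 3691322, across SMAC4_04229 and SMAC4_04230. H3 there had 1.46 in Δasf1 replicate 1, no peak in Δasf1 replicate 2, and 1.56 and 1.26 in the wild type. The next (1.65-fold, Δasf1 replicate 2) lay on chromosome 1 at 4965308 to 4968332, of which 30.3% was in SMAC4_13083, with H3 at 1.40 and 1.48 in Δasf1, against 1.48 and 1.26 in the wild type. The third in order (1.60-fold, Δasf1 replicate 1) lay on chromosome 2 at 1655137 to 1658598 across SMAC4_04502, SMAC4_04503 and SMAC4_04504. It covered 12.3% of that region, in which Δasf1 H3 replicate 1 covered 99.3%.

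Only 5 regions combined peaks in all 4 H3 lists with none in any H3K27me3 list, and they are named here after their values had been seen. On chromosome 1 they were 3723391 to 3725111 (SMAC4_04219, SMAC4_04220 and SMAC4_04221), with H3 at 1.33 and 1.39 in Δasf1, against 1.44 and 1.21 in the wild type, and 3898702 to 3901170 (SMAC4_08487), with 1.35 and 1.39 in Δasf1, against 1.38 and 1.28 in the wild type. Also on chromosome 1, the region at 7051849 to 7053763 (SMAC4_00205) had 1.43 and 1.32 in Δasf1, against 1.50 and 1.27 in the wild type. On chromosome 3 at 4141265 to 4143450 (SMAC4_01049 and SMAC4_01050) H3 stood at 1.39 and 1.33 in Δasf1, against 1.42 and 1.28 in the wild type, and on chromosome 5 at 2076262 to 2077169 (SMAC4_00045) at 1.42 and 1.43 in Δasf1, against 1.39 and 1.30 in the wild type. Wild-type replicate 2 gave the lowest value in each of the 5. At least 51.9% of the SMAC4_00045 region was covered in every H3 list, and at least 69.4% of the SMAC4_01049 region, where peaks covered 69.4% and 93.9% of it in Δasf1, against 95.3% and 70.7% in the wild type.

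The nearest wild-type H3K27me3 peak was at a median distance of 1969 bp (quartiles 1391.25 and 3474.75 bp), which was close to the 1973 bp of the 300 H3 regions with both Δasf1 lists and no wild-type list. In 21 regions it was within 1 kb and in 5 over 10 kb away. The extremes were 4 bp, on chromosome 6 at 2413327 to 2415093 (SMAC4_08291), and 20311 bp, on chromosome 3 at 1429442 to 1430074 (SMAC4_01852). In the SMAC4_01852 region H3 peaks of 1.48 in Δasf1 replicate 2 and of 1.55 and 1.31 in the wild type covered 93.2% to 100% of its 633 bp, and Δasf1 H3K27me3 replicate 1 had 1.43.

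Coverage around the regions was read in steps of 100 bp from the base shared by most H3 lists. At −100 bp, H3 peaks covered 79.8% and 48.9% of the 282 regions in Δasf1, against 78.0% and 83.3% in the wild type. At −1600 bp only 4.96% and 4.61% were covered in Δasf1, against 4.26% and 9.57% in the wild type, and at −3600 bp 25.2% and 13.8% in Δasf1, against 22.3% and 35.1% in the wild type. The high share at the centre and the gap beside it are set largely by the choice of centre and by the merging of all peaks that touch. The H3 values at −3600 bp were near the shares of the genome covered, 24.3% and 14.7% in Δasf1, against 20.8% and 31.2% in the wild type. No trait of the regions is read from this shape. At −3600 bp, H3K27me3 peaks covered 23.0% and 22.7% in Δasf1, against 13.8% and 11.7% in the wild type. The share in genes was 80.1% at −100 bp and 50.4% at −1600 bp.

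**Figure D4:**
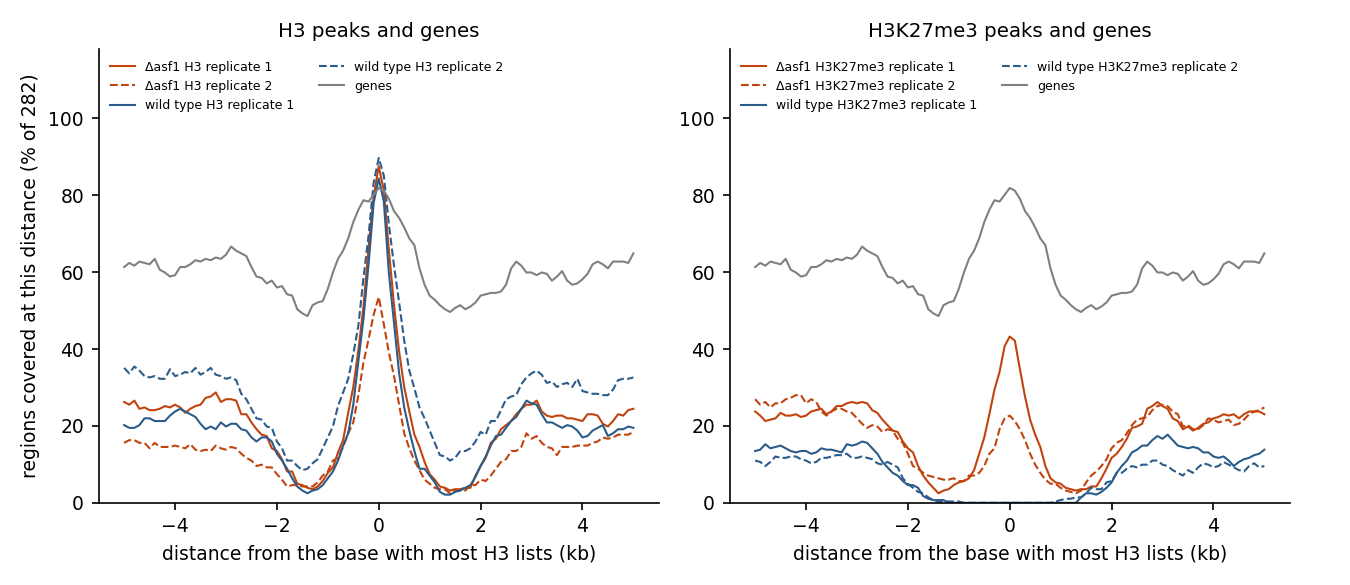
Share of the 282 regions covered by peaks of each list (H3 left, H3K27me3 right) and by genes, in percent, by distance in kb from the base shared by most H3 lists. H3 and Δasf1 H3K27me3 replicate 1 are highest at the centre with a gap near 1 to 2 kb on either side, Δasf1 H3K27me3 replicate 2 is 22.7% at the centre and up to 28.01% at −4200 bp, wild-type H3K27me3 is at 0 at the centre by the rule, and the gene share is highest at the centre.

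Genes made up 72.4% of the length of the 282 regions, against 58.2% of the genome, 72.4% for H3 regions with wild-type H3K27me3 and 70.4% for all 7932 regions. The centre of 221 regions (78.4%) lay in a gene. A single gene was reached by 216 regions (76.6%), more than 1 by 37 (13.1%) and none by 29 (10.3%). Among H3 regions with wild-type H3K27me3 these shares were 52.3%, 44.2% and 3.53%. Wholly inside 1 gene were 121 of the 282 (42.9%), against 22.3% of the H3 regions with wild-type H3K27me3 and 41.3% of the 300 with both Δasf1 lists.

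Region length moved with these shares. Within length classes the shares inside 1 gene lay closer to those of H3 regions with wild-type H3K27me3, and were lower in each. They were 72.7% against 75.5% under 1 kb, 49.2% against 53.1% from 1 to 2 kb, 18.8% against 23.96% from 2 to 3 kb, 9.52% against 10.1% from 3 to 4 kb and 0% against 3.42% at 4 kb and over. The share of length in genes was lower in the regions in every class, with 82.9% against 86.0% under 1 kb, 77.8% against 82.3% from 1 to 2 kb, 71.6% against 77.3% from 2 to 3 kb, 65.3% against 74.2% from 3 to 4 kb and 56.0% against 69.7% at 4 kb and over. These are descriptions of regions from the same 8 lists and carry no test.

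Per library, the share of H3 peak length in genes was compared between peaks in the regions and all other peaks of the list. In Δasf1 it was 78.0% and 70.6% in the regions, against 81.7% and 74.8% elsewhere. In the wild type it was 79.2% and 74.7% in the regions, against 82.5% and 76.2% elsewhere. The mean was 75.6 ± 3.83% in the regions and 78.8 ± 3.85% elsewhere (SD, n = 4 libraries). The difference was −3.18 ± 1.16 percentage points, lower in the regions in 4 of 4 libraries (exact two-sided sign permutation over libraries, p = 0.13, the smallest the design allows). The 4 libraries were scored over the same regions and genes, so p covers the spread between libraries only. The direction held under 9 of 15 alternatives and turned under 6. It held with peaks within 1 kb joined (−3.14 points) and in the 58 regions with no H3K27me3 list (−5.18 points). It was higher in the regions by 3.30 points at a common −log10 q, by 2.66 with the upper 50% of peaks, by 2.62 in the 70 regions with all 4 H3 lists and by 0.506 among regions of under 2 kb.

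**Figure D5:**
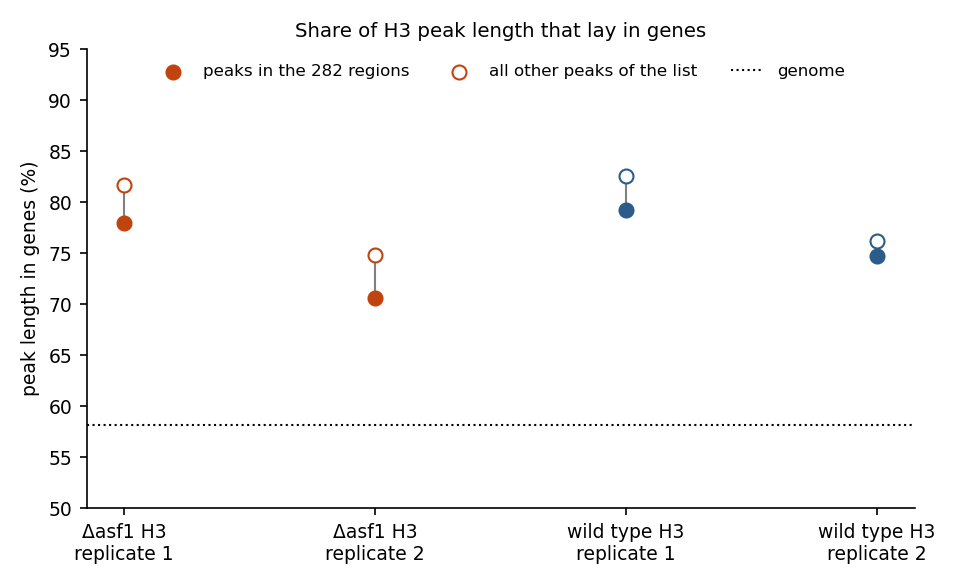
Share of H3 peak length in genes, in percent, by library. Filled points are peaks in the 282 regions, open points all other peaks of the same list, and the dotted line is the genome (58.2%), on an axis that starts at 50%. The filled point is the lower one in each of the 4 libraries, with differences of −4.18 to −1.52 percentage points.

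The gene share varied among the regions with the lists that made them. Regions with H3K27me3 in Δasf1 replicate 1 alone had 76.4% of their length in genes, those with Δasf1 replicate 2 alone 66.2%, and those with no H3K27me3 list 73.4%. The 39 regions without an H3 peak in wild-type replicate 1 had the lowest share, 56.5%, and 10 of them (25.6%) reached no gene. In the 123 regions without Δasf1 H3 replicate 2 the share was 76.5%, and 8 (6.50%) reached no gene. Without Δasf1 H3K27me3 replicate 1 or 2 the difference from other H3 peaks was 1.08 or 2.03 points. With 1 such list left the condition on Δasf1 is always met, so 598 or 611 regions then met the rule, among them regions like the 300 with both Δasf1 lists, which had 78.8% of their length in genes.

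The regions reached 292 of the 10309 protein-coding genes of the table. These genes had a median length of 2536.5 bp, against 2044 bp for genes in H3 regions with wild-type H3K27me3 and 1927 bp for all protein-coding genes. The part of gene length in the choice of these genes was not tested. Where the centre lay in a gene, it stood at a median of 28.8% of the gene length from the nearer edge, against 30.5% for H3 regions with wild-type H3K27me3. Centres in the outer 10% of the gene on either side made up 9.95%, against 13.7%, and centres in the middle 40% made up 47.5%, against 51.0%. The table gives no strand, so starts and ends of genes cannot be told apart.

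Of the protein-coding genes, 2 were reached by 2 of the 282 regions each. SMAC4_02801 held regions on chromosome 1 at 4112856 to 4114348 and at 4115982 to 4117032, both wholly inside the gene. SMAC4_01000 on chromosome 3 was reached by the region at 3961307 to 3962922 and by that at 3963637 to 3964697. The region at 3961307 also reached SMAC4_00999 and the only tRNA gene among the 282 regions, SMAC4_13512, of 445 tRNA genes in the table. Its H3 fold enrichment was 1.55 in Δasf1 replicate 1, with no peak in Δasf1 replicate 2, and 1.49 and 1.31 in the wild type. No rRNA gene was reached.

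The 29 regions without a gene had a median length of 1386 bp and lay at a median of 838 bp (1 to 9005 bp) from the nearest gene, with 10 of them within 500 bp. The longest of them, on chromosome 4 at 4454670 to 4458764, lay 685 bp from SMAC4_02084, and no base in it was shared by 3 H3 lists. The next, on chromosome 5 at 3317862 to 3321357, lay 6613 bp from SMAC4_13850 and had H3 fold enrichments of 1.40 in Δasf1 replicate 1 and of 1.34 and 1.20 in the wild type.

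The regions were spread over all 7 chromosomes. There were 77 on chromosome 1 (7.19% of its H3 regions), 48 on chromosome 2 (6.72%), 46 on chromosome 3 (7.23%), 31 on chromosome 4 (5.64%), 29 on chromosome 5 (5.97%), 24 on chromosome 6 (5.11%) and 27 on chromosome 7 (5.92%). Their density ran from 5.62 per Mb on chromosome 6 to 8.27 per Mb on chromosome 1. In 11 cases the neighbouring merged region was one of the 282 too.

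None of the 282 regions lay within 100 kb of a chromosome end, a zone that makes up 3.55% of the genome. The nearest, on chromosome 6 at 111191 to 114095 (SMAC4_08639), began 111 kb from the end. Its H3 fold enrichments were 1.35 in Δasf1 replicate 1, with no peak in Δasf1 replicate 2, and 1.37 and 1.24 in the wild type. Few H3 regions of any kind lay in this zone, 46 in all, and 45 of them had a wild-type H3K27me3 peak.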

How the data were processed

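Broad peak lists of 8 precipitated libraries were used, without the 8 inputs. The submitters' processing notes name fastp, Bowtie2 and MACS2, without versions or settings. In each list the authors deposited a score per peak, a fold enrichment (ratio to background), a −log10 p-value and a −log10 q-value. Whether the inputs served as background is not given in the sources used here. Cutoffs were looser in replicate 2 than in replicate 1, which adds weak peaks to these lists, and depth is unknown, so no counting interval is given.

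Peaks of all lists were merged where they overlapped by 1 bp or more, and the strongest peak of a list stood for it in a region. The score, which repeats the −log10 q, was not analysed further. Gene positions were taken from a RefSeq table (10804 genes, assembly ASM3387043v1) whose name differs from that in the lists. When peaks were slid along the genes, the share in genes was highest within 100 bp of no offset for 56 of 56 pairs of chromosome and list (median 76.6%, against 59.6% at 3 to 5 kb), so the table was used for names, overlaps and distances. No sequence was used.

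H3 in the strains was described without a p-value, because the rule used the same peaks, although an exact permutation over the 4 libraries had been planned. The gene share was compared by exact two-sided sign permutation over libraries (16 patterns). Scripts were tested on simulated data. Regions were named by rule: the 5 with the highest weakest H3 fold enrichment, the 5 longest, the 3 largest differences in each direction among those whose strains do not overlap, the 3 with most genes (5 tie, of which the 3 longest count) and the 3 with the highest Δasf1 H3K27me3. Others were chosen after their values were seen. The regions, rules and gene table were chosen with earlier results of these data known. Alternatives were other cutoffs, joining, overlap rules, omission of each library in turn, and a replicate block. The exchange of strains in the rule and the count without the chromosome 2 window were added after seeing the data. Python 3.11.15, NumPy 2.4.6, pandas 2.3.3, SciPy 1.17.1 and matplotlib 3.10.9 were used.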

Additional observations from a re-analysis of the deposited data

How the results depend on the processing

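Which regions met the rule depended on the cutoffs more than how many did. In all, 93 combinations of a result and an alternative were run. The number of regions was 100 (50% of a region covered counted as present and under 10% as absent), 70 (all 4 H3 lists), 58 (no Δasf1 H3K27me3 list) and 120 (strains exchanged, added after seeing the data), against 282. Leaving out each library gave 435 to 611. This also loosened the rule, since 2 of 3 H3 lists then sufficed, and 1 remaining list of H3K27me3 in a strain asked less than 2. The strain difference in H3 fold enrichment turned to −0.0049 when values were divided by the list median, and ran from −0.04 to 0.10 on leaving out each library. The lowest was without wild-type H3 replicate 2, where the sign turned (−0.0398). The covered length stayed lower in Δasf1 under 16 of 16 alternatives (log2 −0.84 to −0.0983 on leaving out each library). These alternatives reuse the same lists, and the replicate block repeats the main value by construction. Among replicate 1 libraries alone the ratio was 1.13. The gene share difference kept its sign under 9 of 15 alternatives. It was reversed at 3.30 (common −log10 q), 2.66 (upper 50% of peaks), 2.62 (all 4 H3 lists) and 0.506 points (regions under 2 kb), and ran from −6.21 to 2.03 on leaving out each library, with 1.08 and 2.03 without Δasf1 H3K27me3 replicate 1 and 2. Regions with both Δasf1 values above both wild-type values numbered 3 of 25 (common −log10 q, 10.4% over all regions), 6 of 64 (upper 50%, 15.9%), 6 of 36 (50% covered, 15.1%), 1 of 5 (no Δasf1 H3K27me3 list, 15.1%) and 7 of 70 (deposited values, 8.64%), against 12 of 70 (15.1%). On leaving out each library they numbered 21 to 62 of 95 to 203 regions, where the share over all regions was 29.6% to 36.3% without an H3 list and 15.0% to 15.2% without an H3K27me3 list. Regions with a Δasf1 H3K27me3 peak numbered 79 (50% covered) and 65 (all 4 H3 lists), against 224, and 322 to 460 on leaving out each library.

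With a replicate block the fold enrichment difference (0.02) and the log2 ratio of covered length (−0.43) are the same values. Same-numbered libraries were not shown to be paired: the differences between replicates in the 2 strains had a correlation of 0.0425 across the regions. A shift common to all regions of a replicate number drops out of a correlation, so this value cannot decide the question. The cutoffs of the lists did split by replicate number. Depth, the input background and the strength of H3K27me3 under the cutoffs cannot be read from peak lists.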
